A study of Mus musculus with 23 samples.

Results

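Heat shock proteins and chaperones were followed as a list of 38 genes across mouse hippocampus, out of 54232 genes in each count file. The members were given by name and were found by Ensembl identifier. They comprise HSP70 and HSP110 proteins, HSP90, the mitochondrial chaperones, small heat shock proteins, J-domain proteins, co-chaperones, BAG proteins and the heat shock factors Hsf1 and Hsf2. By textbook knowledge 16 members were classed as inducible, meaning raised by heat through Hsf1, and 20 as constitutive. All 38 passed the filter on low counts in both cohorts.

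Chaperones bind unfolded stretches of other proteins and release them for folding, for hand-over to another chaperone or for degradation. J-domain proteins bring clients to HSP70 and start its ATP cycle, HSP110 proteins and BAG proteins exchange its nucleotide, and Stip1 passes clients on to HSP90. Under stress Hsf1 is freed from chaperones, forms trimers and binds heat shock elements in the promoters of inducible genes. Tau, the protein that aggregates in this model, is a known client of HSP70, HSP90 and the ubiquitin ligase Stub1.

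Poly(A) RNA was sequenced from the hippocampus of C57BL/6 mice in 23 libraries of 7 groups. The 9-month cohort comprised WT (wild type, 4 libraries), PS19 (tau transgene, 4), PS19_Lsd1het (tau transgene with 1 deleted allele of Lsd1, 4) and Lsd1het (the deleted allele alone, 2). The PS19 transgene encodes human tau with the P301S change and is driven by the prion protein promoter. The 11-month cohort was injected in the hippocampus with adeno-associated virus that is expressed in neurons. It comprised WT_HA (wild type, HA control virus, 3 libraries), PS19_HA (tau transgene, HA virus, 3) and PS19_rescue (tau transgene, LSD1 virus, 3). Age and virus change together between the cohorts. The labels do not say that libraries are from separate animals, so the p-values below cover the spread between libraries alone, and that spread may be technical.

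Libraries held 15451494 to 24644977 counted reads, and the 38 members took 0.580% to 0.821% of them. The mitochondrial share of counts was 2.86% to 6.04% in 20 libraries and higher in WT replicate 3 (33.9%), WT_HA replicate 2 (16.2%) and PS19 replicate 3 (16.1%). The 5 markers of hippocampal pyramidal and granule neurons were detected in every library, but 4 libraries stood apart. Their summed level was 177.5 CPM (counts scaled to a common library total) in PS19_Lsd1het replicate 2 and 186.8, 322 and 328 in replicate 3 of PS19_HA, WT_HA and PS19_rescue, beside 360.5 to 938 in the other libraries. The sum of 3 thalamus markers was 107.5, 154, 161 and 229 CPM in those 4 in the same order, and 29.3 to 86.8 in the others. Values of PS19_Lsd1het and the 11-month groups below include these libraries. Kdm1a, which encodes LSD1, averaged 55.5 CPM in WT and 37.0 in Lsd1het, while PS19_Lsd1het replicate 3, at 55.2 CPM, lay at the WT level. In PS19_rescue it was 1763 to 10850 CPM. In bulk tissue, fewer cells of a type and less RNA per cell cannot be told apart.

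The promoters of the inducible HSP70 pair and of the chaperonin pair are shown first, because the largest swings between libraries were in the former. Sequences are from RefSeq, build GRCm38.p6, and matched 29 of the 38 members. Hspa1a and Hspa1b lie on chromosome 17 on the minus strand. Their transcripts shared 58.8% (of Hspa1a) and 62.3% (of Hspa1b) of stretches of 50 bases, so reads of the pair may be split between them or left out of the counts. The 150 bases before their starts (chr17:34972157-34972306 and chr17:34959239-34959388, minus strand) differed at 1 position. Capitals mark a heat shock element of 2 units, 96 bases before the start in both.
Hspa1a: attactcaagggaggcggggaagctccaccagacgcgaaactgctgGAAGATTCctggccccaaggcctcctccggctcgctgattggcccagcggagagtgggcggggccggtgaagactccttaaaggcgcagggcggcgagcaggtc
Hspa1b: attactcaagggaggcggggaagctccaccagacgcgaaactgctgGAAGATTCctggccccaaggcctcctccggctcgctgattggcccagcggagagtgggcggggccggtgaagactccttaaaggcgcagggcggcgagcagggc
Hspe1 and its neighbour Hspd1, the subunits of the mitochondrial chaperonin, are read in opposite directions from overlapping starts on chromosome 1. Upstream of the Hspe1 start (chr1:55088059-55088076, plus strand), inside the annotated span of Hspd1, lie 2 overlapping elements of 3 units, all in capitals. All 18 bases are annotated as exonic.
Hspe1: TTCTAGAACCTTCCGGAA

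The 3-unit element was searched as GAANNTTCNNGAA or TTCNNGAANNTTC, which covers both strands, from 250 bases before to 50 after each start. It was found in 4 of 14 inducible members with a promoter entry (Chordc1, Hspd1, Hspe1 and Hsph1), in 1 of 14 constitutive members (Dnajb6) and in 0.662% of 27025 genes. The 2-unit form, GAANNTTC or TTCNNGAA, is also part of every 3-unit element. It was found in 10 of 14 inducible members, 4 of 14 constitutive members and 17% of genes. These are matches of letters, not sites of binding.

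Levels are given as CPM after TMM scaling, a correction for library composition, and levels of different genes are compared only per kilobase of exon. Hsp90ab1, the constitutive HSP90, was the most abundant member at 513 CPM per kb averaged over the 23 libraries. Hsp90aa1, its inducible counterpart, followed at 219 CPM per kb, and Hspa8, the constitutive HSP70, at 176. The inducible pair stood near the bottom, with Hspa1b at 3.95 and Hspa1a at 2.21 CPM per kb, and Bag2 was lowest at 2.02. The constitutive HSP70 thus exceeded the inducible pair, per kb, in every library, by 3.07-fold in PS19 replicate 2 and by 79.2-fold in PS19_HA replicate 1 at the extremes. How reads with several alignments were counted is not given, so the level of the pair may be too low and these folds too high.

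No member passed the threshold of an adjusted p under 0.05 in any of the 9 comparisons, by edgeR's quasi-likelihood test or by DESeq2. DESeq2 gave no p for Hspa1a and Hspa1b in the comparisons at 9 months. All genes had few calls as well. For PS19 against WT, edgeR called 0.00497% of all genes tested and DESeq2 0.958%. For PS19_Lsd1het against WT the shares were 0.00497% and 0.552%, for PS19_Lsd1het against PS19 0% and 0.00502%, for Lsd1het against WT 0% and 0.00502%, and for the interaction of tau and Lsd1 0% and 0.01%. At 11 months they were 0.0156% and 0.628% for PS19_HA against WT_HA, 0% and 0.0156% for PS19_rescue against PS19_HA, and 0.0207% and 0.0992% for PS19_rescue against WT_HA. For the difference of the tau effect between cohorts both were 0%. At an unadjusted edgeR p under 0.05 the members numbered 2, 2, 2, 0, 2, 3, 1, 1 and 0 of 38 in the same order. The shares of all genes at that p were 3.91%, 6.31%, 1.25%, 1.28%, 0.835%, 8.63%, 1.81%, 4.01% and 0.569%.

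**Figure D1:**
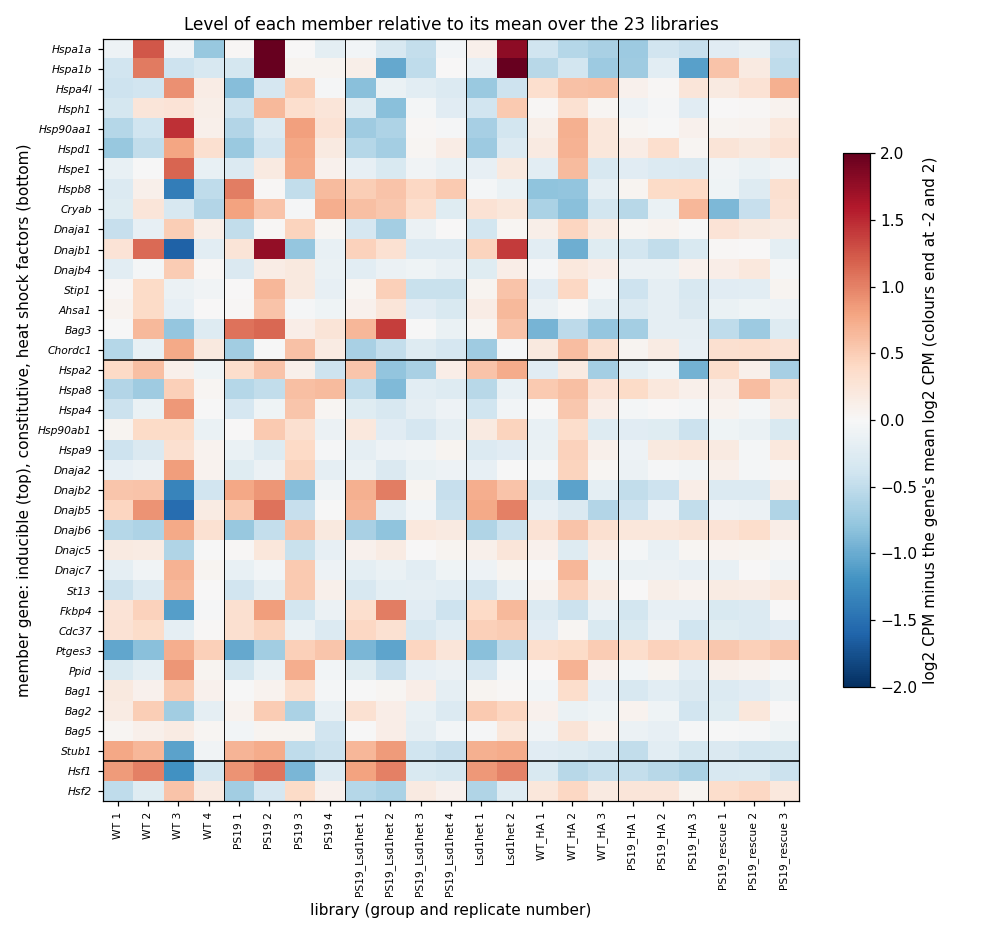
Level of each of the 38 members (rows) in each of the 23 libraries (columns), as log2 CPM minus the mean of that gene, with inducible members above the first line and heat shock factors below the second. Hspa1a and Hspa1b are darkest in PS19 replicate 2 and Lsd1het replicate 2, and several rows, among them Hsf1 and Stub1, part by library number at 9 months.

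The inducible HSP70 genes were high in single libraries of 3 genotypes. Hspa1b (chromosome 17, 34956436 to 34959238) stood at 6.05, 16.2, 5.97 and 6.34 CPM in WT replicates 1 to 4. In PS19 it was 6.24, 72.5, 8.19 and 8.25 CPM, and in Lsd1het 7.09 and 33.99. Replicate 2 was thus the highest library in each of these groups, while the other libraries overlapped. In PS19_Lsd1het no library stood out, with 8.55, 3.90, 5.56 and 7.95 CPM. At 11 months the 9 libraries ran from 3.71 to 11.8 CPM, and the highest was PS19_rescue replicate 1.

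Hspa1a (chromosome 17, 34969190 to 34972156) was high in the same libraries. It was 4.71, 11.99, 4.80 and 2.99 CPM in WT, 5.15, 37.4, 5.06 and 4.44 in PS19, and 5.43 and 17.5 in Lsd1het. In PS19_Lsd1het it lay between 3.65 and 4.89 CPM and at 11 months between 3.07 and 4.58. Summed, the pair took 110 CPM in PS19 replicate 2, 51.5 in Lsd1het replicate 2 and 28.2 in WT replicate 2. The coefficient of variation of Hspa1b among the PS19 libraries was 137%, above that of 99.8% of genes whose mean reached 1 CPM.

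Dnajb1, the J-domain partner of inducible HSP70, was also highest in those libraries. It stood at 45.0, 81.0, 12.04 and 32.1 CPM in WT, at 44.5, 126, 21.7 and 33.6 in PS19, and at 50.6 and 97.8 in Lsd1het. PS19_Lsd1het had 50.9, 45.7, 30.6 and 30.6 CPM. At 11 months Dnajb1 lay between 18.9 and 37.5 CPM. Replicates 3 and 4 of each 9-month group of 4 were below replicates 1 and 2, a split described further on.

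Hsph1, the HSP110 that exchanges nucleotide on HSP70, moved less. It was 233, 352, 358 and 321 CPM in WT, 221, 467, 376 and 353 in PS19, and 228 and 426 in Lsd1het. In PS19_Lsd1het it was 249, 167, 289 and 255 CPM, so that replicate 2, the library with the lowest hippocampal marker sum, was the lowest there. The 11-month libraries ran from 254 to 368 CPM.

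**Figure D2:**
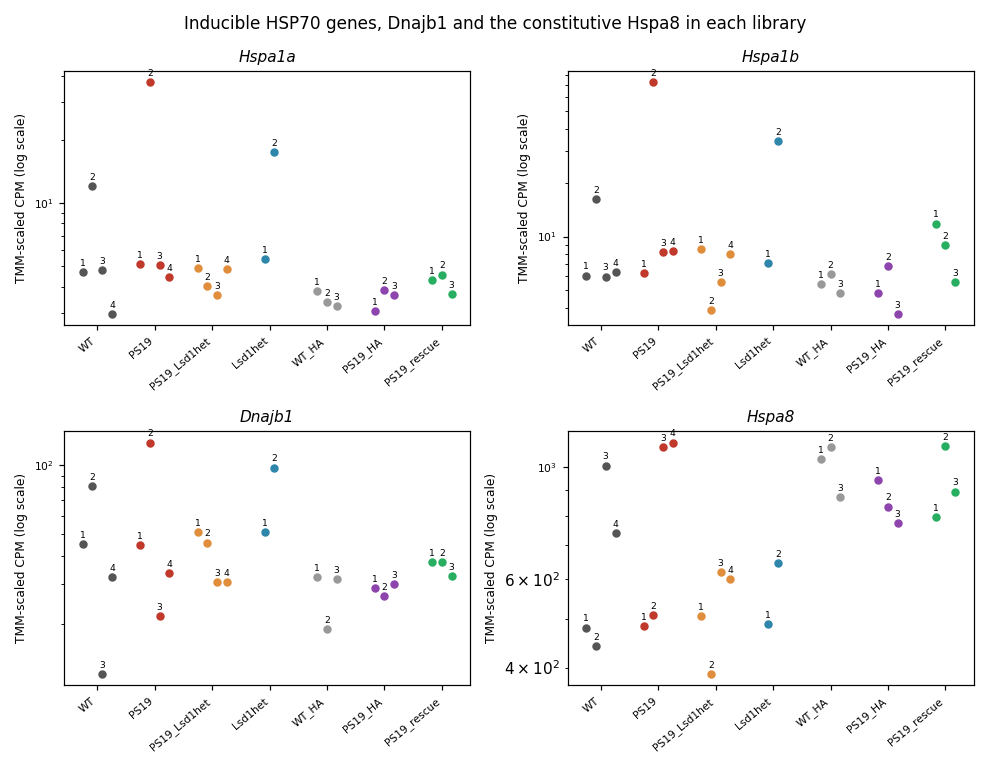
TMM-scaled CPM (log scale) of Hspa1a, Hspa1b, Dnajb1 and Hspa8 in each library by group, with each point numbered by replicate. Replicate 2 is the highest point of WT, PS19 and Lsd1het for the first 3 genes. For Hspa8 it is the highest in Lsd1het but not in WT or PS19. In PS19_Lsd1het it is the highest for none of these genes.

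The differences between groups for the inducible HSP70 pair rested on those libraries. PS19 libraries had a mean Hspa1b level of 23.8 ± 32.5 CPM, against 8.64 ± 5.04 for WT (SD, n = 4 each), a log2 difference of 1.45 (SE 0.76; edgeR adjusted p = 1). Without PS19 replicate 2 it was -0.16, and without the libraries numbered 2 of every group 0.29. Hspa1a went from 1.08 to -0.31 without PS19 replicate 2. In PS19_Lsd1het against PS19, Hspa1b differed by -1.86 (SE 0.77; edgeR adjusted p = 0.9999), and by -0.25 without PS19 replicate 2. In Lsd1het against WT it differed by 1.22 (SE 0.88; edgeR adjusted p = 0.8055), and by -0.34 without Lsd1het replicate 2. The interaction of tau and Lsd1 was -3.09 (SE 1.16; edgeR adjusted p = 0.9991) for Hspa1b, and -0.18 without the libraries numbered 2. Fits without Lsd1het replicate 2 leave replicate 1 alone in that group, with no spread of its own.

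The summed level of genes induced by handling and neuronal activity was highest in replicate 2 within PS19 and within WT, though not for every gene in WT. In Lsd1het the sum was high in both libraries, and higher in replicate 1. The summed level of 7 such genes, among them Fos, Jun and Egr1, was 1117 CPM in PS19 replicate 2, 927 in WT replicate 2 and 892 in Lsd1het replicate 2. It was 994 CPM in Lsd1het replicate 1, where Hspa1b was at 7.09 CPM. Of these genes only Jun was higher in Lsd1het replicate 2 than in replicate 1, at 225 and 153 CPM. Fos was 24.7 and 43.8 CPM there, and Egr1 181 and 235. In the other 9-month libraries the sum ran from 228 to 684 CPM, and at 11 months from 218 to 394. The part of handling in the HSP70 values was not tested. The choroid plexus marker sum, a trace of neighbouring tissue, was 1014, 2183 and 79.3 CPM in those 3 libraries in the same order.

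The genes outside the list whose pattern was most like the summed pair were ranked by Pearson's r of group-centred log2 CPM over the 23 libraries, among 16137 genes. The first was P4ha1, a subunit of collagen prolyl hydroxylase, at r = 0.87, followed by the J-domain gene Dnaja4 at 0.84 and P4ha2 at 0.83. Banp was at 0.81 and Hspa5, the HSP70 of the endoplasmic reticulum, at 0.80. The next were Efnb2, Erlin1, Eif4e3, Noxred1 and the clock gene Per2. Hspa5 stood at 324, 403 and 382 CPM in replicate 2 of WT, PS19 and Lsd1het and at 175 to 253 in the other 9-month libraries. At 11 months it was 343.8 CPM in PS19_rescue replicate 2, where the pair summed to 13.6 CPM, and 166 to 247 in the other libraries. Among members, Ahsa1, an activator of the HSP90 ATPase, had r = 0.75, Dnajb1 0.71, Hsph1 0.64 and Hsp90ab1 0.63. The other inducible members ran from -0.21 for Hspa4l to 0.53 for Stip1. Hsp90aa1, Hspd1, Hspb8 and Cryab also had a negative r, and the rest of that class a positive r. These values describe libraries that share depth and preparation, and the 3 high libraries weigh most in them.

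Small heat shock proteins and Bag3 had higher means in tau-transgenic libraries, and none passed the threshold. In Lsd1het (n = 2), which carries no tau, their means were also above those of WT. Hspb8 averaged 12.5 CPM there and 9.93 in WT, Cryab 71.2 and 52.1, and Bag3 16.6 and 13.1. Hspb8 and its partner Bag3 direct aggregated proteins to autophagy, and Cryab holds unfolded proteins in solution and is abundant in oligodendrocytes and astrocytes. Hspb8 (chromosome 5, 116408491 to 116422864) was 11.0, 14.3, 5.07 and 9.36 CPM in WT and 26.99, 13.5, 9.39 and 20.7 in PS19. In PS19_Lsd1het it was 18.7, 19.8, 17.6 and 19.1 CPM, and in Lsd1het 12.97 and 12.1. Every PS19_Lsd1het library lay above every WT library, while PS19 and WT overlapped. Hspb8 was the only one of 38 members without overlap between PS19_Lsd1het and WT, against 4.4% of all genes tested.

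At 11 months Hspb8 was 7.58, 7.67 and 11.8 CPM in WT_HA and 13.8, 17.3 and 17.4 in PS19_HA. All 3 PS19_HA libraries were above all 3 WT_HA libraries. The log2 difference was 0.87 (SE 0.22), with an edgeR adjusted p of 0.4541 and a DESeq2 adjusted p of 0.06065, the lowest of any member. Over the edgeR alternatives the adjusted p ran from 0.11, without the 3 libraries numbered 3 that stood apart, to 0.8416. At 9 months Hspb8 differed by 0.83 (SE 0.31; edgeR adjusted p = 0.8298) in PS19 and by 0.92 (SE 0.31; edgeR adjusted p = 0.631) in PS19_Lsd1het, each against WT. The 2 comparisons share the WT libraries. PS19_rescue stood at 12.5, 11.1 and 16.6 CPM, overlapping both other groups, with a log2 difference of -0.33 (SE 0.22; edgeR adjusted p = 1) from PS19_HA.

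Cryab (chromosome 9, 50751325 to 50756636) was 50.5, 70.3, 47.8 and 39.7 CPM in WT and 103, 87.8, 58.3 and 98.5 in PS19. PS19_Lsd1het had 89.7, 86.7, 75.0 and 50.0 CPM and Lsd1het 72.8 and 69.5. PS19 replicate 3 lay below WT replicate 2, and the other PS19 libraries lay above all WT libraries. The log2 difference of PS19 from WT was 0.73 (SE 0.23), with the lowest edgeR adjusted p of any member in that comparison, 0.4953. It was 0.51 (SE 0.23; edgeR adjusted p = 0.7895) for PS19_Lsd1het against WT. At 11 months Cryab was 38.2, 33.2 and 46.2 CPM in WT_HA, 40.7, 53.9 and 94.1 in PS19_HA and 31.7, 43.4 and 72.8 in PS19_rescue. Replicate 3 was the highest library of each of these groups. The groups overlapped, with a difference of 0.71 (SE 0.35; edgeR adjusted p = 0.6244) for PS19_HA against WT_HA, which was 0.30 without PS19_HA replicate 3 and 0.44 without replicate 3 of all 3 groups. PS19_rescue differed from PS19_HA by -0.40 (SE 0.35; edgeR adjusted p = 1), and by 0.01 without PS19_HA replicate 3.

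Bag3 (chromosome 7, 128523616 to 128546981) was 13.1, 20.6, 7.69 and 11.0 CPM in WT and 28.0, 29.1, 14.4 and 15.7 in PS19. PS19_Lsd1het had 20.8, 34.2, 13.03 and 11.9 CPM and Lsd1het 13.6 and 19.6. Replicates 1 and 2 were the higher libraries in each of the groups of 4, and the PS19 and WT libraries overlapped. The log2 difference of PS19 from WT was 0.73 (SE 0.36; edgeR adjusted p = 1), and that of PS19_Lsd1het 0.59 (SE 0.36; edgeR adjusted p = 0.8287), which was 0.22 without PS19_Lsd1het replicate 2. With a block for replicate number, the difference was 0.75 for PS19 (SE 0.15, edgeR adjusted p = 0.1156). For PS19_Lsd1het it was then 0.56 (SE 0.15, edgeR adjusted p = 0.1285). WT_HA held 6.91, 9.19 and 7.70 CPM, PS19_HA 8.22, 11.6 and 11.7, and PS19_rescue 9.27, 7.95 and 10.9. Those groups overlapped, and the difference of PS19_HA from WT_HA was 0.43 (SE 0.20; edgeR adjusted p = 0.5996).

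Mean sums of glial markers were higher in the same tau groups than in wild type, but the astrocyte sums overlapped. The summed level of 6 microglial markers was 244 to 288 CPM in WT, 294 to 964 in PS19 and 396 to 615 in PS19_Lsd1het, and of 6 oligodendrocyte markers 3920 to 4524, 4929 to 7330 and 4870 to 6397. In Lsd1het, which carries no tau, oligodendrocyte markers summed to 6408 and 4367 CPM and microglial markers to 274 and 268. The 6 astrocyte markers summed to 4729 to 6269 CPM in WT, 5058 to 10260 in PS19 and 6074 to 8615 in PS19_Lsd1het. Both tau groups thus overlapped WT for astrocyte markers. At 11 months microglial markers summed to 275 to 575 CPM in PS19_HA, beside 240 to 296 for WT_HA and 329 to 348 for PS19_rescue. Oligodendrocyte markers in replicates 1 to 3 summed to 3579, 2491 and 4595 CPM in WT_HA, 4349, 5430 and 5982 in PS19_HA and 4152, 3983 and 7554 in PS19_rescue, highest in replicate 3 of each group as Cryab was. Every marker on these lists was detected in every library. Their part in the levels of Hspb8, Cryab and Bag3 was not tested.

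**Figure D3:**
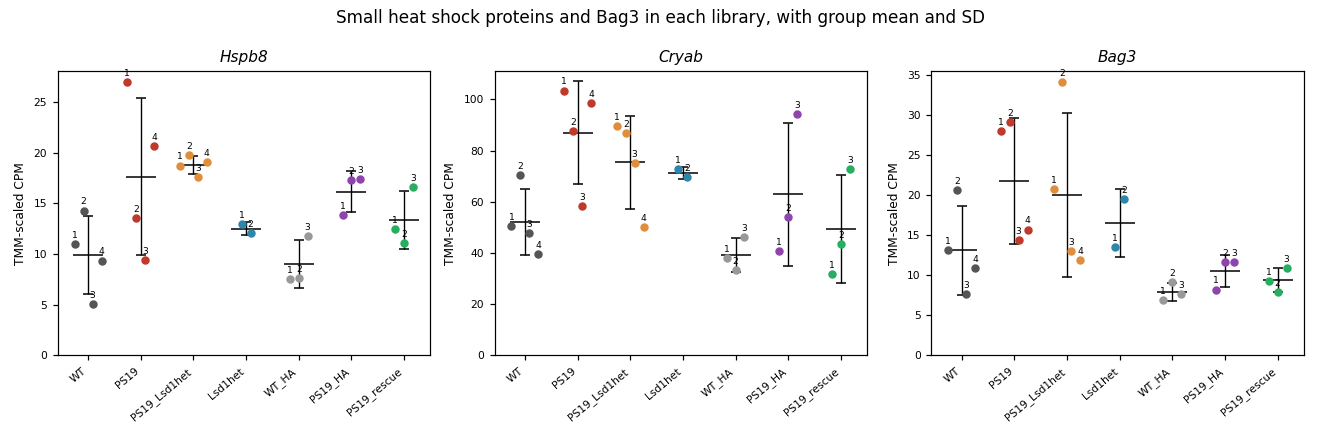
TMM-scaled CPM of Hspb8, Cryab and Bag3 in each library by group, numbered by replicate, with horizontal bars for group means and whiskers for 1 SD. Hspb8 in PS19_Lsd1het lies between 17.6 and 19.8 CPM, above all WT libraries, and Cryab spans 40.7 to 94.1 CPM within PS19_HA.

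Across the whole inducible class the tau difference at 9 months was small in the median. The median log2 difference of the 16 inducible members in PS19 against WT was 0.09, with 9 higher, and that of the 20 constitutive members was -0.03, with 6 higher, beside -0.02 over all genes. In no member were PS19 and WT free of overlap, against 1.58% of all genes. For PS19_Lsd1het against WT the medians were -0.33 and -0.25, with 3 and 5 members higher, beside 0.00 over all genes. They shrank to -0.12 and -0.08 without WT replicate 3, the library with 33.9% mitochondrial counts. The members with the lowest p among those lower in that comparison were Chordc1, a HSP90 co-chaperone, at -0.60 (SE 0.34) and Hspe1 at -0.54 (SE 0.34), both with an edgeR adjusted p of 0.8287. Chordc1 was 63.5, 84.9, 158 and 108 CPM in WT and 59.96, 67.1, 78.7 and 74.7 in PS19_Lsd1het. The ranges overlapped, and PS19_Lsd1het replicate 1 lay below every WT library.

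**Figure D4:**
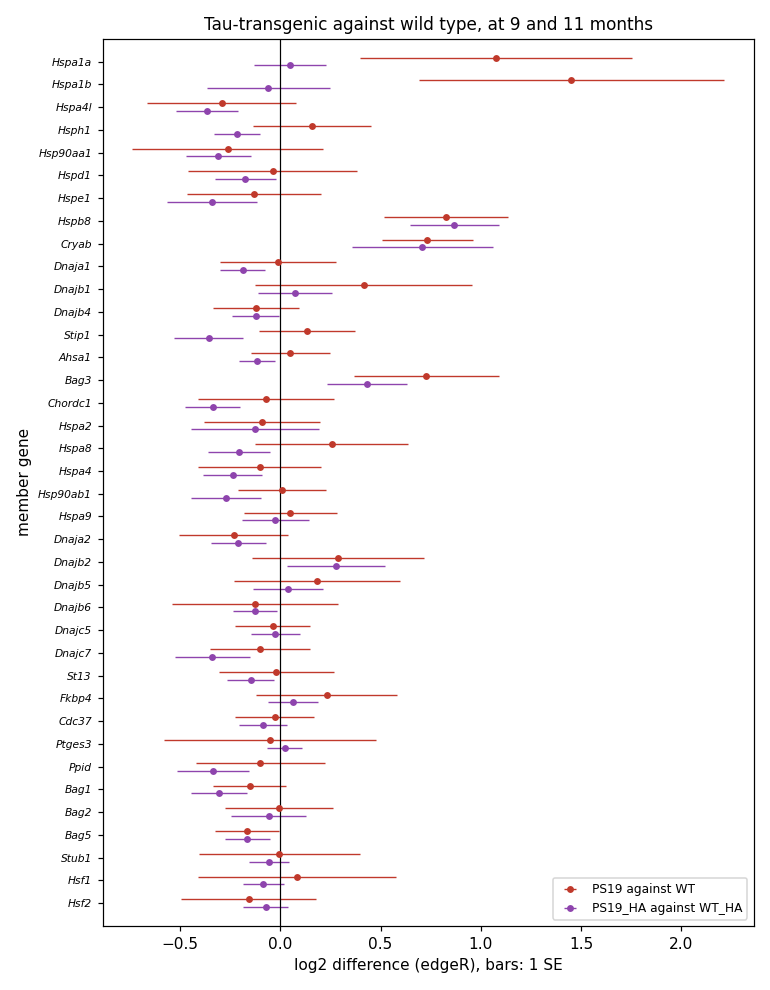
Log2 difference of each member in PS19 against WT at 9 months and in PS19_HA against WT_HA at 11 months (x axis), as points with bars of 1 SE. Hspb8, Cryab and Bag3 lie to the right of 0 in both, while Hspa1b is at 1.45 with a wide bar at 9 months and near 0 at 11 months.

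At 11 months more members had lower than higher values in PS19_HA. Against WT_HA 29 of 38 were lower, and the groups did not overlap for 8 of them, namely Hspa4l, Hsph1, Hsp90aa1, Dnaja1, Dnajb6, Dnajc7, Bag1 and Chordc1. With Hspb8 above, 9 of 38 members did not overlap, beside 14.1% of all genes. Chordc1 was 108, 144 and 117 CPM in WT_HA and 97.7, 105 and 83.5 in PS19_HA, a log2 difference of -0.34 (SE 0.14; edgeR adjusted p = 0.555). Hspa4l, an HSP110, was 264, 316 and 321 CPM in WT_HA and 222, 214 and 249 in PS19_HA, a difference of -0.37 (SE 0.16; edgeR adjusted p = 0.5703). In both genes WT_HA replicate 1 was the WT_HA library nearest to PS19_HA. The class medians were -0.15 (inducible) and -0.13 (constitutive) beside 0.00 over all genes, and -0.06 and -0.04 without WT_HA replicate 2, the library with 16.2% mitochondrial counts. The tau effect of no member differed between the cohorts by test, the largest difference being -1.51 (SE 0.99; edgeR adjusted p = 1) for Hspa1b, which was 0.11 without PS19 replicate 2.

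In PS19_rescue 30 of 38 members had higher values than in PS19_HA, with medians of 0.11 for inducible and 0.04 for constitutive members beside -0.01 over all genes. Hspa1b was 11.8, 8.98 and 5.55 CPM in PS19_rescue and 4.85, 6.81 and 3.71 in PS19_HA. The groups overlapped through PS19_rescue replicate 3, and the log2 difference was 0.72 (SE 0.30; edgeR adjusted p = 1). In 9 members, namely Hsph1, Hspe1, Dnaja1, Dnajb1, St13, Ahsa1, Ptges3, Chordc1 and Hsf1, every PS19_rescue library was above every PS19_HA library, beside 9.88% of all genes free of overlap in either direction. Among them Chordc1 was 117, 118 and 115 CPM in PS19_rescue, a difference of 0.23 (SE 0.14; edgeR adjusted p = 1) that was 0.14 without PS19_HA replicate 3. Against WT_HA the lowest p among members was that of Hspb8, at 0.54 (SE 0.22; edgeR adjusted p = 0.8638). Bag1, which links HSP70 to the proteasome, was lower there at -0.31 (SE 0.14; edgeR adjusted p = 0.8638).

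The balance of inducible and constitutive members was also set out per library, as the difference of their mean log2 CPM. The mean for PS19 was -0.67 ± 0.23, beside -0.88 ± 0.17 for WT and -0.87 ± 0.06 for PS19_Lsd1het (SD, n = 4 each). At 11 months the means were -0.97 ± 0.06 in WT_HA, -0.89 ± 0.07 in PS19_HA and -0.84 ± 0.06 in PS19_rescue (SD, n = 3 each). The highest libraries were PS19 replicate 2 at -0.35, Lsd1het replicate 2 at -0.62, PS19 replicate 4 at -0.68 and WT replicate 2 at -0.69. The lowest was Lsd1het replicate 1, at -1.08. The range within PS19, from -0.89 to -0.35, was wider than the gap between any pair of group means.

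Many genes parted by library number at 9 months, and members did so at a share near that of the rest. Among all genes tested 28.4% had no overlap between the 8 libraries numbered 1 and 2 and the 6 numbered 3 and 4, and among members 14 of 38. The split is thus a feature of these libraries across genes and is described here because member levels carry it. Hsf1, the main heat shock factor (chromosome 15, 76477422 to 76501913), was 63.7 to 77.3 CPM in numbers 1 and 2 and 15.8 to 30.1 in numbers 3 and 4. Hsf2 (chromosome 10, 57486385 to 57513135), a factor that forms mixed trimers with Hsf1, went the other way, from 18.7 to 25.7 CPM against 32.1 to 45.1. Within each set PS19 overlapped WT for both factors. In PS19_Lsd1het Hsf2 was 20.5 and 19.6 CPM in numbers 1 and 2, beside 21.4 and 25.7 in WT. In numbers 3 and 4 it was 34.2 and 32.3 CPM, beside 45.1 and 34.5 in WT. Hsf1 in PS19_Lsd1het was 29.8 and 28.6 CPM in numbers 3 and 4, beside 15.8 and 28.5 in WT, and overlapped WT in numbers 1 and 2. Over both sets together PS19_Lsd1het overlapped WT for both factors. At 11 months Hsf1 lay between 23.5 and 29.7 CPM and Hsf2 between 31.4 and 40.6, near the levels of numbers 3 and 4.

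Of the 14, those higher in numbers 3 and 4 were Hsp90aa1, Hspa9, Hspd1, Dnajb6, Ptges3 and Hsf2, and those lower were Dnajb1, Dnajb2, Fkbp4, Cdc37, Ahsa1, Bag2, Stub1 and Hsf1. Ptges3, the HSP90 co-chaperone p23, averaged 37.3 CPM in numbers 1 and 2 and 94.7 in numbers 3 and 4. Stub1, the ubiquitin ligase that marks chaperone clients, averaged 76.5 and 33.5 CPM. Hspd1 ran from 84.4 to 118 CPM in numbers 1 and 2 and from 147 to 247 in numbers 3 and 4. Dnajb6, a suppressor of protein aggregation, ran from 36.8 to 47.5 and from 72.4 to 109 CPM, and Hspa9, the mitochondrial HSP70, from 159 to 195 and from 201 to 277. Among those lower in numbers 3 and 4, the neuronal J-domain gene Dnajb2 ran from 117 to 162 CPM in numbers 1 and 2 and from 31.7 to 82.9 in numbers 3 and 4. For the HSP90 co-chaperones the ranges were 101 to 170 and 39.0 to 81.9 CPM (Fkbp4), 127 to 146 and 82.8 to 105 CPM (Cdc37, which serves kinases) and 85.5 to 131 and 68.0 to 84.1 CPM (Ahsa1). Bag2 ran from 6.33 to 8.62 and from 3.71 to 5.44 CPM. All 14 therefore hold this split inside each genotype that has both sets. Without the libraries above 10% mitochondrial counts 15 members did not overlap. The mitochondrial share itself was 2.86% to 3.83% in numbers 1 and 2 and 4.72% to 33.9% in numbers 3 and 4. The labels name no batch, and the part of the mitochondrial share in the split was not tested.

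**Figure D5:**
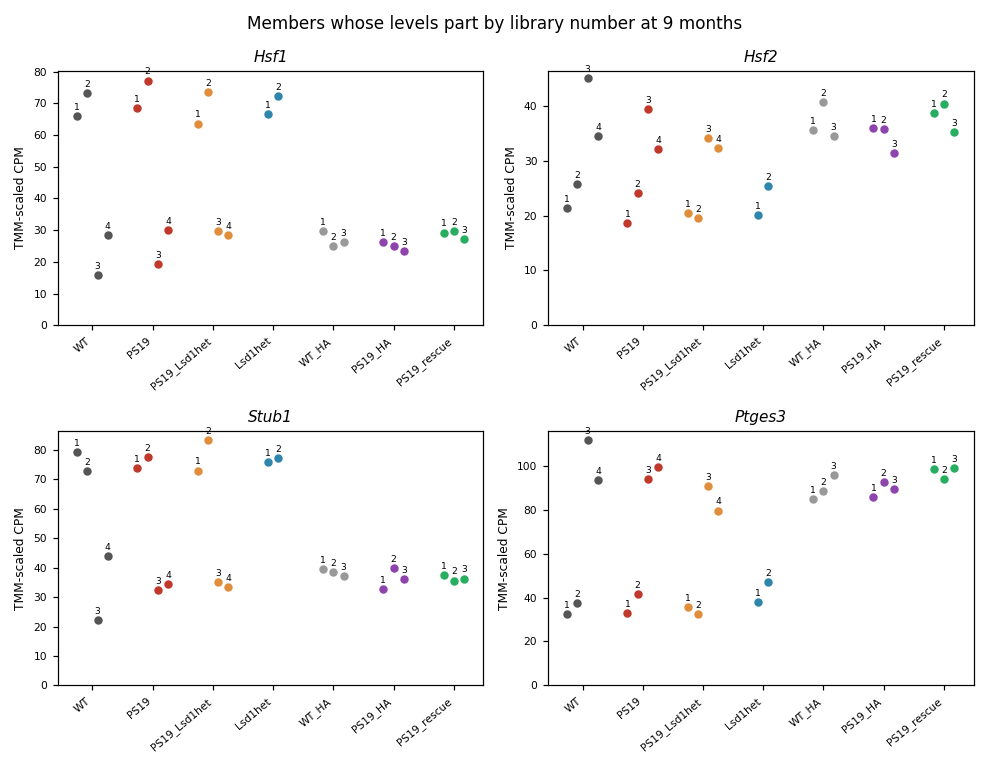
TMM-scaled CPM of Hsf1, Hsf2, Stub1 and Ptges3 in each library by group, numbered by replicate. At 9 months Hsf1 and Stub1 are high in replicates 1 and 2 and low in 3 and 4, Hsf2 and Ptges3 are the reverse, and the 11-month libraries lie near replicates 3 and 4.

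The inducible and constitutive copies differed in this split. Hsp90aa1 was 541, 609, 2210 and 857 CPM in WT, 535, 665, 1418 and 978 in PS19, 490, 526, 814 and 787 in PS19_Lsd1het and 504 and 621 in Lsd1het. Hsp90ab1 had no such split, at 1562, 1963, 1966 and 1380 CPM in WT, 1526, 2166, 1885 and 1397 in PS19, 1743, 1289, 1194 and 1327 in PS19_Lsd1het and 1704 and 2054 in Lsd1het. The 2 libraries highest in Hsp90aa1, WT replicate 3 and PS19 replicate 3, are those with 33.9% and 16.1% mitochondrial counts. Hspa8 was 480, 442, 1006 and 739 CPM in WT, 483, 509, 1096 and 1117 in PS19, 506, 389, 619 and 599 in PS19_Lsd1het and 487 and 646 in Lsd1het. It was lower in replicate 2 than in replicates 3 and 4 of WT and PS19, unlike Hspa1b. Its lowest value, 389 CPM, was in PS19_Lsd1het replicate 2, the library with the lowest hippocampal marker sum. At 11 months Hsp90aa1 lay between 798 and 1315 CPM, Hsp90ab1 between 1116 and 1918 and Hspa8 between 773 and 1098.

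Some members came next in p without standing apart by group. Bag5, a BAG protein that inhibits HSP70, was 40.7, 42.4, 44.3 and 40.4 CPM in WT and 38, 41.2, 41.2 and 30.3 in PS19, a log2 difference of -0.17 (SE 0.16; edgeR adjusted p = 1). Dnaja2 was 170, 175, 341 and 199 CPM in WT and 161, 177, 260 and 168 in PS19, a difference of -0.23 (SE 0.27; edgeR adjusted p = 1). It turned to 0.10 without WT replicate 3, the highest library. In Lsd1het against WT the lowest p among lower members were those of Hspa4l at -0.82 (SE 0.47) and Hsp90aa1 at -1.004 (SE 0.61), both with an edgeR adjusted p of 0.8055. Hspa4l was 158, 162, 395 and 234 CPM in WT and 126 and 159 in Lsd1het. The 2 Lsd1het libraries carry the numbers 1 and 2, and the WT libraries of those numbers lay close to them.

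The remaining members are given by role, with their range over the 23 libraries. Of the HSP70 and HSP110 genes, Hspa2 ran from 30.5 to 97.8 CPM and Hspa4 from 213 to 520. Among J-domain genes, Dnajc5, which guards proteins of synaptic vesicles, ran from 231 to 415 CPM, Dnaja1 from 146 to 329, Dnajb4 from 57.1 to 99.4, Dnajb5 from 44.0 to 269 and Dnajc7 from 132 to 245. Dnajc5 had the lowest p among members higher in PS19_Lsd1het than in PS19, at 0.15 (SE 0.19; edgeR adjusted p = 0.9999). Among HSP90 co-chaperones, Stip1 ran from 98.0 to 211 CPM, St13 from 126 to 270 and Ppid from 62.4 to 158. Stip1 had the lowest p among these for a difference of its tau effect between cohorts, at -0.49 (SE 0.32; edgeR adjusted p = 1). Bag1 ran from 57.5 to 103 CPM.

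A further 55 chaperone genes outside the list, among them the chaperonin TRiC, prefoldin and the chaperones of the endoplasmic reticulum, were read for comparison. Of these 53 were tested at 9 months and 52 at 11 months, and none was called by either tool in any comparison. The count at an unadjusted edgeR p under 0.05 was 0 in each 9-month comparison, 5 of 52 in PS19_HA against WT_HA (beside the 8.63% of all genes given above), 1 in PS19_rescue against PS19_HA and 2 in PS19_rescue against WT_HA. The lowest p was that of Pfdn2, a prefoldin subunit, at 65.5 ± 14.4 CPM in WT_HA and 46.7 ± 0.84 in PS19_HA (SD, n = 3 each), a log2 difference of -0.46 (SE 0.15; edgeR adjusted p = 0.4617). Its WT_HA values were 57.9, 82.1 and 56.6 CPM, highest in replicate 2, the library with 16.2% mitochondrial counts. Hspb1, a small heat shock protein, averaged 2.71 CPM in WT and 6.89 in PS19, a difference of 1.34 (SE 0.63; edgeR adjusted p = 1). The WT libraries ran from 0.36 to 6.33 CPM and overlapped PS19, at 2.66 to 13.4, highest in PS19 replicate 2. Lsd1het, which carries no tau, stood at 3.995 and 7.46 CPM, and PS19_Lsd1het at 3.53 to 7.41. At 11 months Hspb1 averaged 1.603 CPM in WT_HA and 2.70 in PS19_HA, a difference of 0.78 (SE 0.31; edgeR adjusted p = 0.5544).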

How the data were processed

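The submitters' processing notes name HISAT2 (2.1.0) and featureCounts (1.6.0.6) for build GRCm38, with Trimmomatic (0.36.5), FastQC (0.11.7) and their own DESeq2 (2.11.40.2). The authors deposited raw counts per gene, 1 file per library. Not given in the sources used here are annotation version, use of strand and rule for reads with several alignments. Members that overlap a neighbour (Hspd1 and Hspe1) or have near copies (Hspa1a and Hspa1b, and genes with processed pseudogenes) are therefore uncertain. Of 54232 identifiers, 54165 matched GENCODE M21.

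Counts were tested with edgeR 4.0.16 in R 4.3.3 (TMM, filterByExpr by group with minimum count 10 and minimum total 15, robust quasi-likelihood test, Benjamini-Hochberg over all genes, threshold 0.05). One fit held the 9-month libraries (20122 genes), another the 11-month libraries (19290) and 1 more all 23 (20931). DESeq2 1.42.0 was the second tool. CPM used TMM factors, with a prior count of 2 for log2 CPM, and the fits were tested on simulated data. Those data held log2 changes of 2 and less spread between libraries than the real counts. That check therefore does not show whether smaller differences would be called in the real libraries. The closest libraries of a group had a chi-square of 11.6 per gene, so none was counted as a duplicate.

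The members and lists were chosen with earlier results of these data known. Values per library are given for Hspa1a, Hspa1b, Dnajb1, Hsph1, Bag3, Hspb8, Cryab, the HSP90 pair, Hspa8, Hsf1 and Hsf2, and for each comparison the members with the lowest p in each direction were named, where they add a value. Of the other chaperones at most 6 were named, and likeness used genes whose mean reached 1 CPM. The choice of Hspa5 for its values, of Ptges3, Stub1 and Hsp90aa1 in the numbered libraries, and of further genes named for their range was made after values were seen.

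Whether same-numbered libraries deviate together from their group means was checked by correlation across genes. The lowest and highest pair gave 0.49 and 0.81 (PS19 with WT, 4 pairs), 0.30 and 0.52 (PS19_Lsd1het with WT), 0.29 and 0.47 (PS19_Lsd1het with PS19), 0.10 and 0.28 (PS19_HA with WT_HA, 3 pairs), and 0.11 and 0.44 (PS19_rescue with WT_HA). These were taken as paired, from the data and not from the labels. A library correlated best with its own number in 4 of 4 cases for PS19 with WT and 3 of 3 for PS19_HA with WT_HA, but in 2 of 4 for PS19_Lsd1het with WT, 0 of 4 for PS19_Lsd1het with PS19 and 2 of 3 for PS19_rescue with WT_HA. PS19_rescue with PS19_HA gave 0.06 and 0.23, and Lsd1het with WT 0.03 and 0.06.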

Additional observations from a re-analysis of the deposited data

Results flagged for a closer look

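Among 114 sets of 4 libraries (38 members in 3 groups), 7 held a library far from the other 3 by Dixon's 95% criterion. Chance alone flags about 1 in 20 groups. In WT replicate 2, Hspa1b stood at 16.2 CPM, beside 5.97 to 6.34 in the other WT libraries. In PS19 replicate 2, Hspa1a was 37.4 CPM (others 4.44 to 5.15), Hspa1b 72.5 (others 6.24 to 8.25) and Ahsa1 124 (others 79.1 to 85.5). The other 3 were in libraries with over 10% mitochondrial counts. Hspe1 was 89.3 CPM in WT replicate 3 (others 36.0 to 39.9), and in PS19 replicate 3 Dnaja2 was 260 CPM (others 161 to 177) and Dnajc7 218 (others 137 to 145).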

How the results depend on the processing

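No member was called in any of the 162 fits under alternatives (another tool, normalization, filter or set of libraries). The replicate block gave 0 calls in every comparison and changed no call. For PS19 against WT its edgeR adjusted p was 0.1156 for Bag3, 0.2237 for Cryab and 0.3259 for Hspb8. Among 41 log2 differences of named members, 30 kept their direction throughout and 22 of 739 values reversed. Leaving out 1 library at a time, the PS19 against WT difference ran from -0.31 to 1.61 for Hspa1a and from -0.16 to 1.92 for Hspa1b (both lowest without PS19 replicate 2, highest without WT replicate 2), and from -0.42 to 0.10 for Dnaja2 (positive without WT replicate 3). In PS19_Lsd1het against PS19 that range was -0.12 to 0.35 for Hspb8, negative without PS19 replicate 3 and, at -0.018, without PS19 replicate 2. Hspb8 also became -0.094 without high mitochondrial libraries, -0.028 without the libraries numbered 2 and -0.082 in numbers 1 and 2 alone, where Dnajc5 became -0.0017. Hspa1b in Lsd1het against WT ran from -0.34 (without Lsd1het replicate 2, which leaves replicate 1 alone) to 1.96. Cryab in PS19_rescue against PS19_HA ran from -0.79 to 0.0056 (without PS19_HA replicate 3). The interaction for Hsf2, 0.44, became -0.039 with the replicate block, -0.054 with a covariate for library set and -0.042 in numbers 1 and 2 alone. The difference between cohorts ran from -0.19 to 0.26 for Hsf2 (negative without WT replicate 3 or PS19 replicate 1), from -0.32 to 0.35 for Ptges3 (negative without WT replicates 3 or 4, or PS19 replicates 1 or 2) and from -1.97 to 0.11 for Hspa1b (positive without PS19 replicate 2). For Ptges3 it was -0.11 without high mitochondrial libraries. The cause was not tested. The settings without high mitochondrial libraries, without libraries whose thalamus markers summed over 100 CPM (which reversed no value), without the libraries numbered 2, and within library numbers were chosen after seeing the data. The counts of Hspa1a, from 53 to 690 per library, limit its precision.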
